A study of Mus musculus with 9 samples.

Results

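The genes of cholesterol and fatty acid synthesis were followed here in mouse MC3T3-E1 cells, a calvarial pre-osteoblast line, after exposure to an organic or an inorganic phosphate. The members were a list of 32 genes named by symbol: the enzymes from acetyl-CoA to farnesyl diphosphate, the enzymes from squalene to cholesterol, the SREBP regulators with the sterol carrier Stard4, and the enzymes of fatty acid synthesis, elongation and desaturation. Each of the 32 symbols occurred once among the 55416 genes of the count table, and all 32 passed the filter on low counts, as did 13679 genes in all. The list was drawn up by pathway, with earlier results of these data known.

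RNA was sequenced from 9 libraries in 3 groups of 3: Control, BGP (β-glycerophosphate, an organic phosphate ester) and NaHPO4 (a Na2HPO4/NaH2PO4 mixture, an inorganic phosphate). The cells of every group, labelled wild type, had been grown in osteogenic medium with 10% serum, 50 µg/ml ascorbic acid, 0.1 µM dexamethasone and 10 mM BGP, so Control cells had also met BGP before the experiment. At day 27 the treated wells received 4 mM of BGP or of NaHPO4 for 16 h, and RNA was taken at day 28. The labels keep BGP in the medium throughout the differentiation, whereas the methods of the study withdraw it before the treatment. The line is a single subclone, and the sources used here do not state whether replicates were separate cultures, so the p-values measure the spread between these samples, which may be technical. Both phosphate groups were compared with the same 3 Control libraries, so the 2 comparisons with Control are not independent of each other.

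Cholesterol is built from acetyl-CoA through mevalonate, isoprenoid diphosphates, squalene and lanosterol. Transcription of most of these enzymes is driven by SREBP-2 (gene Srebf2), a membrane-bound factor that SCAP escorts from the endoplasmic reticulum to the Golgi for cleavage when sterols are low, while INSIG proteins hold it back when sterols are high. SREBP-1 (gene Srebf1) acts more on fatty acid synthesis and desaturation. In bone cells the pathway also supplies the isoprenoids that anchor small GTPases, and farnesyl diphosphate synthase (gene Fdps) is the target of nitrogen-containing bisphosphonates.

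Promoters of 5 members are shown: Hmgcs1, Idi1, Lss and Insig1 rose with both phosphates, while Fasn passed the test with neither in the main fit. Fasn is only 1 of the 12 members with a matched promoter that passed with neither, and need not be typical of them. Each sequence runs from 250 bases before to 50 bases after the RefSeq start (sequences from RefSeq, GRCm38.p6), and its position was found by exact match on GRCm39. Capitals mark 4 motifs sought on both strands, some of which overlap: the sterol regulatory element TCACNCCAC, the E-box TCACGTGA, the NF-Y box CCAAT and, bound by Sp1, the GC box GGGCGG, each also in capitals where its reverse complement stands.
Hmgcs1 (chr13:120151637-120151936, plus strand): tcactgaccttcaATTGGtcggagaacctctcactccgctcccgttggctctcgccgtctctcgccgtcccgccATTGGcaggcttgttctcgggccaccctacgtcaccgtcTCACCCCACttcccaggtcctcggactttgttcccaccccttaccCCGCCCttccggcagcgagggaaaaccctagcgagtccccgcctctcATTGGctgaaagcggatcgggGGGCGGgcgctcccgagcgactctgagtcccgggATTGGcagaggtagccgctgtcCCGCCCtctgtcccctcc
Idi1 (chr13:8935392-8935691, plus strand): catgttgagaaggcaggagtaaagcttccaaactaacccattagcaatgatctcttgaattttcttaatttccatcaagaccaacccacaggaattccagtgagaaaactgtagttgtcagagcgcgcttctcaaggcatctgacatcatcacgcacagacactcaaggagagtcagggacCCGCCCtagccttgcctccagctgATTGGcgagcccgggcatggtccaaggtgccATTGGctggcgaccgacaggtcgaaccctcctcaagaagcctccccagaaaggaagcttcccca
Lss (chr10:76367189-76367488, plus strand): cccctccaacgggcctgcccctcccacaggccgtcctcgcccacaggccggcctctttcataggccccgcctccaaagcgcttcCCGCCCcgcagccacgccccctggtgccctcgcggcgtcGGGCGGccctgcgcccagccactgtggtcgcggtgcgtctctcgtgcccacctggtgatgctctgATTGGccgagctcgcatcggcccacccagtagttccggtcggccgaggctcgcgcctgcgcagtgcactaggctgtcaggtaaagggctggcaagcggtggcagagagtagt
Insig1 (chr5:28276160-28276459, plus strand): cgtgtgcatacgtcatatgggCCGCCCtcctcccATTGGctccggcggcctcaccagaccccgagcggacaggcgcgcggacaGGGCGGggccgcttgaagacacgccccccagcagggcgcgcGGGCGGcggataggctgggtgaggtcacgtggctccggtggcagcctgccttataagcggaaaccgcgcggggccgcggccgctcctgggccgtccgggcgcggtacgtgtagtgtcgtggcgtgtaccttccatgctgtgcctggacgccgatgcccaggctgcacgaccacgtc
Fasn (chr11:120715324-120715623, minus strand): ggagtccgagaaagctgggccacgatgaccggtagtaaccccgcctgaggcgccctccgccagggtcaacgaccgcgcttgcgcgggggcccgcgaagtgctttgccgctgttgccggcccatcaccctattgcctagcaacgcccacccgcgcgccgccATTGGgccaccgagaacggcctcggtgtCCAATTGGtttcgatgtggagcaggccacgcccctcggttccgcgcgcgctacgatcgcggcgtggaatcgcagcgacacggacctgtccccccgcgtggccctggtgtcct

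In the Hmgcs1 window a single TCACNCCAC began 137 bases before the start, between CCAAT boxes at 176 and 45 bases before it. The Idi1 window held 2 CCAAT boxes and 1 GC box, the Lss window 1 and 2, and the Insig1 window 1 and 3. The Fasn window held 3 CCAAT boxes and no GGGCGG. RefSeq starts differed from those of the canonical GENCODE transcripts for all 5 members shown. They lay upstream by 438 bases for Fasn, 277 for Idi1 and 95 for Hmgcs1, and downstream by 83 for Insig1 and 49 for Lss. The Fasn and Idi1 windows thus ended before the canonical start, and their box counts need not be those of the sequence next to it.

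RefSeq promoters were matched for 25 of the 32 members, 33 windows in all, while Fdft1, Fdps, Scd1, Scd2, Sqle, Stard4 and Fads1 had none. GGGCGG occurred in 25 of the 33 windows (75.8%) against 35.7% of all 32851 promoters of the same length, and CCAAT in 21 (63.6%) against 37.4%. TCACNCCAC was found in the Hmgcs1 window alone (1 of 33, 3.03%, against 1.24% of all promoters). TCACGTGA was in none of the members' windows, and in 0.974% of all. The boxes were common among members that rose and members that did not: among the 13 genes with a promoter that rose with NaHPO4, 10 held CCAAT and 12 GGGCGG, and among the 12 that passed the test with neither phosphate, 10 and 9 did. A match is a description of letters and not a shown binding site.

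Library totals ran from 21390839 to 28234404 counts, and the 3 NaHPO4 libraries included the deepest (25203779 to 28234404). Levels are given as CPM, the usual per-library scaling of counts to a common total, here with TMM factors. Adjusted p is that of edgeR's quasi-likelihood test with Benjamini-Hochberg adjustment over all 13679 genes. Called means adjusted p below 0.05, and a differentially expressed gene (DEG) also needs an absolute log2 fold change above 0.5. Differences between groups are log2 fold changes throughout, and gene positions are those of GENCODE M39 on GRCm39. Exons of Acat2, Hmgcs1, Fdft1, Sqle, Cyp51, Nsdhl, Srebf1, Srebf2, Scap, Acly and Acaca overlap those of a named gene on the opposite strand, and with the strand setting of the counting unknown their reads may include some from that gene. In bulk RNA, fewer cells of a type and less RNA per cell cannot be told apart. All 11 osteoblast and osteocyte markers passed the filter, with summed levels of 55426 to 59168 CPM in Control, 54183 to 57799 in BGP and 49463 to 52727 in NaHPO4. Of these, Dmp1 rose with both phosphates and Phex with BGP (DESeq2 called 1 of the 2 with BGP), while Bglap2, Bglap, Alpl, Sost and Col1a1 fell with NaHPO4. Adipocyte markers were scarce: 2 of 9 (Fabp4 and Cebpa) passed the filter, Cidec, Cfd and Retn had 0 counts in every library, and the list summed to 25.8 to 31.2 CPM in Control, 23.8 to 27.8 in BGP and 20.3 to 27.6 in NaHPO4. Of 5 chondrocyte markers 3 passed, and Col2a1 rose with BGP (log2 fold change 0.50) and fell with NaHPO4 (-0.45), neither of them called by DESeq2 and the NaHPO4 libraries overlapping with Control, and the list summed to 250 to 308 CPM in Control, 341 to 447 in BGP and 186 to 266 in NaHPO4. Macrophage markers (3 of 5 tested) summed to 5.79 to 8.81 CPM over all libraries, and of 4 endothelial and 4 skeletal muscle markers none passed the filter, with Kdr, Myod1 and Myog at 0 counts in every library. Their part in the lipid results was not tested.

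BGP raised 11 of the 32 members and lowered none (edgeR, while DESeq2 gave 10 and 0). The risers were Hmgcs1 and Idi1 of the mevalonate pathway, Sqle, Lss, Cyp51 and Msmo1 of the sterol steps, Srebf2, Insig1 and Stard4, and Scd2 and Elovl6 of fatty acid modification. Among all tested genes 1.86% were called higher and 0.665% lower with BGP. The median log2 fold change of the members was 0.112, against -0.004 for all tested genes, and 29 of 32 lay above 0. At an unadjusted p below 0.05 there were 19 members higher and 1 lower (Tm7sf2). All 3 BGP libraries lay above all 3 Control libraries for 19 members, an ordering found in 9.74% of all genes. Idi1 was the lone DEG among the members, where 0.482% of all genes were DEGs in that direction. Without BGP replicate 1, 7 members were called higher and no member was a DEG.

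NaHPO4 raised 20 of the 32 members and lowered none (edgeR, while DESeq2 gave 19 and 0). The 20 comprised Acat2, Hmgcs1, Mvd, Idi1 and Fdps, then Fdft1, Sqle, Lss, Cyp51, Msmo1, Nsdhl and Sc5d, then Srebf2, Insig1 and Stard4, and finally Elovl6, Scd1, Scd2, Fads1 and Fads2. Among all tested genes 3.43% were called higher and 3.95% lower, and that split depended on the scaling: with total counts in place of TMM, 777 genes were higher and 413 lower in place of 469 and 540, while the members went from 20 to 21. The members' median log2 fold change was 0.231, against 0.0001 for all tested genes, and 27 of 32 lay above 0. At an unadjusted p below 0.05 there were 22 higher and 0 lower. Libraries of the 2 groups did not overlap, with NaHPO4 the higher, for 22 members and for 11.6% of all genes. Idi1 was again the lone DEG, against 0.446% of all genes, and Stard4 at 0.48 lay just under the limit on fold. The number of DEGs was 2 in place of 1 without Control replicate 1, without NaHPO4 replicate 3 and with total-count scaling, through Stard4 (log2 fold change up to 0.51), and without Control replicate 2, through Elovl6 (0.56).

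**Figure D1:**
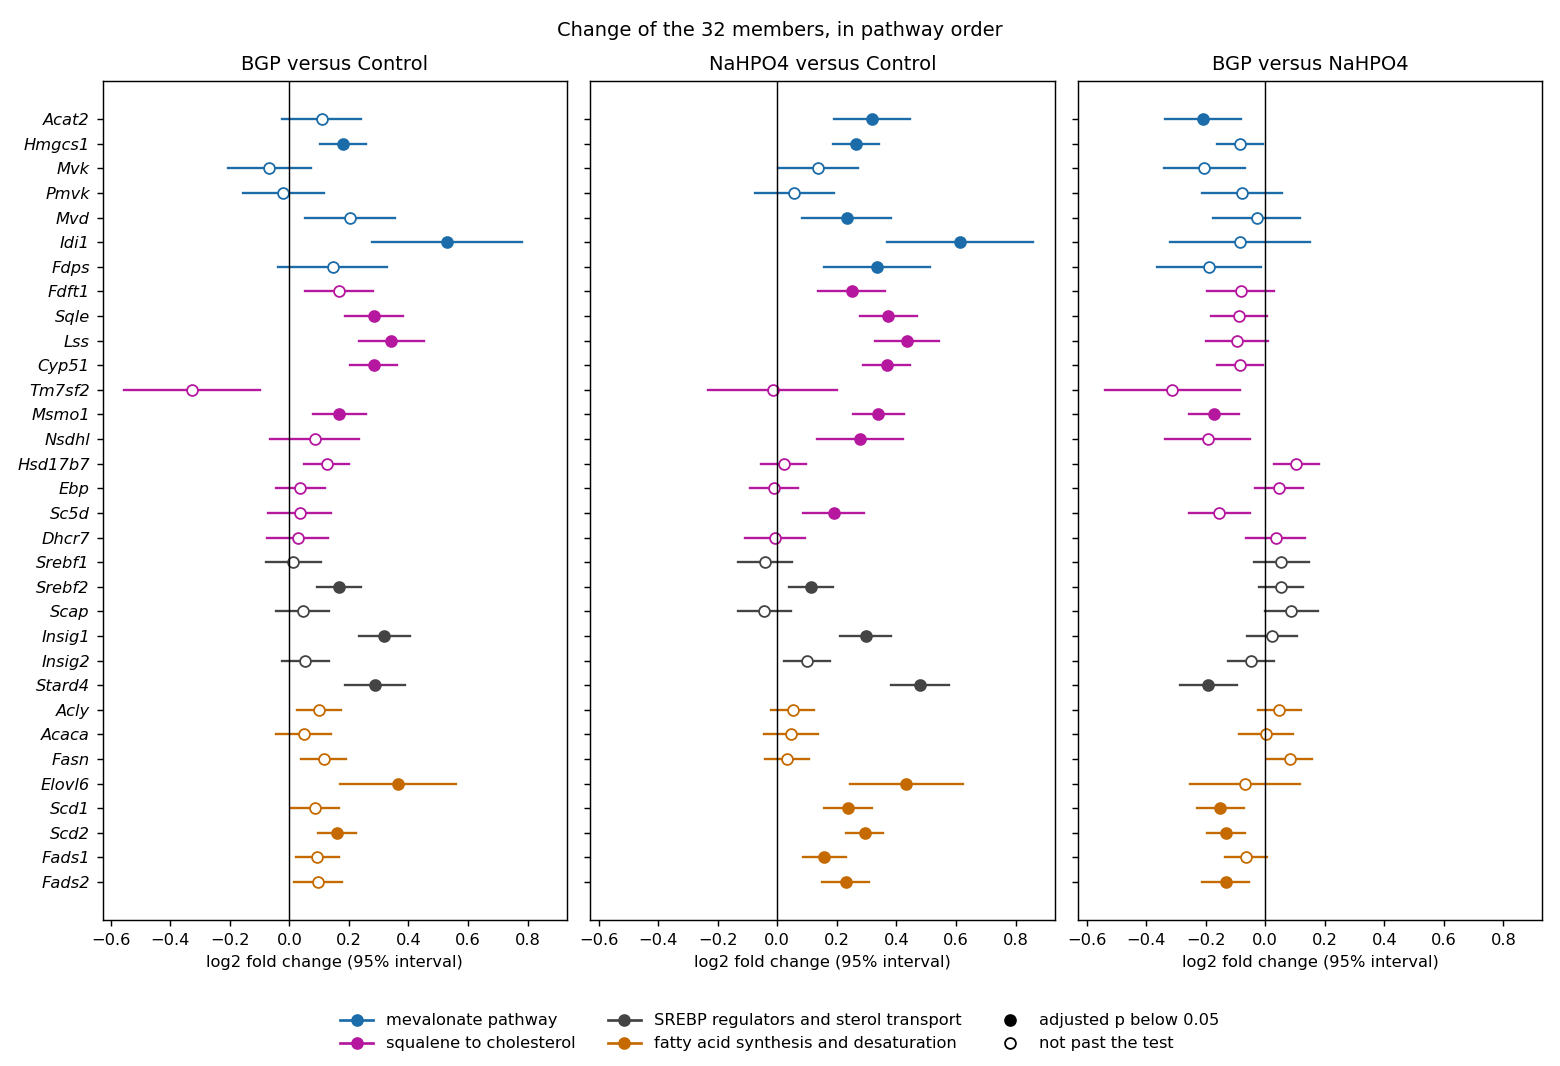
Log2 fold change of each of the 32 members (vertical axis, in pathway order, coloured by role) with its 95% interval in the 3 comparisons; filled circles passed adjusted p below 0.05. Members called lie to the right of 0 in both comparisons with Control (11 and 20), and the 6 called in BGP versus NaHPO4 lie to its left.

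In the mevalonate pathway, which turns acetyl-CoA into farnesyl diphosphate, 2 of 7 members rose with BGP and 5 of 7 with NaHPO4 (median log2 fold change 0.145 and 0.266). Idi1 (ENSMUSG00000058258, chr13:8935537-8942487, plus strand), which isomerises isopentenyl diphosphate, had the largest change of all members in both comparisons. Idi1 read 5.19, 4.96 and 4.84 CPM in the Control libraries, 7.44, 7.05 and 7.13 in BGP and 7.35, 8.04 and 7.54 in NaHPO4. All treated libraries lay above all Control libraries, and the 2 treated groups overlapped. The change was 0.53 ± 0.12 log2 (SE, adjusted p 0.0111) with BGP, a 1.44-fold rise, and 0.61 ± 0.12 log2 (SE, adjusted p 0.00063) with NaHPO4, a 1.53-fold rise. Idi1 was also among the scarcest members, with 111 to 229 counts per library, and 17.0% of the 50-base windows of its exons also occur in other genes, chiefly its annotated pseudogenes, so its reads may be split between them. Without BGP replicate 1 the BGP value was 0.51 with an adjusted p of 0.0605.

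Hmgcs1 (ENSMUSG00000093930, chr13:120151915-120170470, plus strand) encodes the cytosolic synthase that makes HMG-CoA for sterol synthesis. Hmgcs1 read 111, 120.0 and 115 CPM in the Control libraries, 134, 126 and 133 in BGP and 137, 138 and 141 in NaHPO4. The 3 groups formed separate levels, Control lowest and NaHPO4 highest. The rise was 0.18 ± 0.04 log2 (SE, adjusted p 0.00393) with BGP and 0.27 ± 0.04 log2 (SE, adjusted p 4.61e-06) with NaHPO4. Leaving out Control replicate 1 brought the BGP value to 0.15 with an adjusted p of 0.0590.

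Acat2 (ENSMUSG00000023832, chr17:13161367-13179641, minus strand) is the cytosolic thiolase that joins acetyl-CoA units at the head of the pathway. Acat2 read 26.5, 25.6 and 24.3 CPM in the Control libraries, 25.6, 27.9 and 28.7 in BGP and 30.6, 30.9 and 33.5 in NaHPO4. The NaHPO4 libraries stood above both other groups, while BGP and Control overlapped. It rose with NaHPO4 by 0.32 ± 0.06 log2 (SE, adjusted p 0.000715), and with BGP the log2 fold change was 0.11 (95% interval -0.02 to 0.24). Of its 50-base windows 18.1% also occur elsewhere, chiefly in Acat3, and its exons overlap those of Tcp1 on the opposite strand, so its level is uncertain.

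Mvd, which decarboxylates mevalonate diphosphate, and Fdps rose with NaHPO4 by 0.23 ± 0.07 log2 (SE, adjusted p 0.0437) and 0.33 ± 0.09 log2 (SE, adjusted p 0.0115). Both calls were fragile. Mvd was lost without any 1 of Control replicates 1, 2 and 3, BGP replicates 2 and 3 or NaHPO4 replicates 2 and 3 (adjusted p 0.0521 to 0.184), with DESeq2 (0.0981), without the filter on low counts (0.0815) and in the 2-group fit (0.0610), and Fdps without Control replicates 1 or 2 or NaHPO4 replicate 2 (0.0519 to 0.0869). Of the Fdps windows 9.37% are shared with other genes, chiefly pseudogene-like predicted genes. The mevalonate kinases Mvk and Pmvk were not called with either phosphate, with log2 fold changes of -0.07 and -0.02 with BGP and 0.14 and 0.06 with NaHPO4. Without NaHPO4 replicate 1, which at 26.4 CPM lay below its fellows at 31.7 and 31.0, Mvk passed the test with NaHPO4 (0.22, adjusted p 0.0394).

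From squalene to cholesterol, 4 of 11 members rose with BGP and 7 of 11 with NaHPO4 (median 0.125 and 0.249). Fdft1, the squalene synthase, whose exons overlap those of Ctsb on the opposite strand, rose with NaHPO4 by 0.25 ± 0.06 log2 (SE, adjusted p 0.00248), and with BGP its log2 fold change was 0.17 (adjusted p 0.130).

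Sqle (ENSMUSG00000022351, chr15:59186869-59203043, plus strand), the squalene epoxidase, catalyses the first oxygenation and is a flux-controlling step. Sqle read 63.6, 66.4 and 65.0 CPM in the Control libraries, 85.7, 78.2 and 73.6 in BGP and 80.7, 84.2 and 87.5 in NaHPO4. Every treated library exceeded every Control library, and the 2 treated groups overlapped. The rise was 0.28 ± 0.05 log2 (SE, adjusted p 0.000203) with BGP and 0.37 ± 0.05 log2 (SE, adjusted p 5.08e-07) with NaHPO4.

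Lss (ENSMUSG00000033105, chr10:76367298-76392976, plus strand), the lanosterol synthase, closes the sterol rings. Lss read 37.7, 42.1 and 42.9 CPM in the Control libraries, 54.4, 51.0 and 50.6 in BGP and 55.2, 53.5 and 57.7 in NaHPO4. Again both treated groups stood clear of Control and overlapped each other. It rose by 0.34 ± 0.05 log2 (SE, adjusted p 5.74e-05) with BGP and 0.44 ± 0.05 log2 (SE, adjusted p 1.73e-07) with NaHPO4, the largest in this branch in both comparisons.

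Cyp51 (ENSMUSG00000001467, chr5:4123416-4154751, minus strand), the lanosterol 14-demethylase, follows. Cyp51 read 97.1, 100.9 and 94.4 CPM in the Control libraries, 121.6, 119.4 and 114.6 in BGP and 122.2, 125.6 and 129.3 in NaHPO4. The NaHPO4 libraries were the highest and the Control libraries the lowest, with no overlap among the 3 groups. The change was 0.28 ± 0.04 log2 (SE, adjusted p 6.85e-06) with BGP and 0.37 ± 0.04 log2 (SE, adjusted p 1.24e-08) with NaHPO4.

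Msmo1 (ENSMUSG00000031604, chr8:65170603-65186830, minus strand), the methyl sterol oxidase that begins removal of the C4 methyl groups, showed the same order of groups. Msmo1 read 66.2, 69.9 and 65.1 CPM in the Control libraries, 76.4, 72.6 and 76.9 in BGP and 86.0, 85.6 and 82.9 in NaHPO4. The groups did not overlap. The rise was 0.17 ± 0.04 log2 (SE, adjusted p 0.0272) with BGP and 0.34 ± 0.04 log2 (SE, adjusted p 3.73e-07) with NaHPO4. The BGP call was lost without Control replicates 1 or 3 or BGP replicates 1 or 3 (adjusted p 0.115 to 0.138), whereas the NaHPO4 call was kept without any 1 library.

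Nsdhl, which acts after Msmo1 in C4 demethylation, and Sc5d, the lathosterol desaturase, rose with NaHPO4 by 0.28 ± 0.07 log2 (SE, adjusted p 0.00927) and 0.19 ± 0.05 log2 (SE, adjusted p 0.0143). Nsdhl was lost without Control replicate 2 or NaHPO4 replicate 3 (adjusted p 0.0610 and 0.0973), and Sc5d without Control replicates 1 or 3 (0.0636 and 0.0656). The remaining 4 members of the branch were not called with either phosphate: Tm7sf2, a sterol C14 reductase, Hsd17b7, a 3-ketosteroid reductase, Ebp, the sterol isomerase, and Dhcr7, the last reductase before cholesterol. With NaHPO4 their log2 fold changes lay between -0.02 and 0.02, and the widest 95% interval was that of Tm7sf2, from -0.23 to 0.20. Ebp and Dhcr7 were close to 0 with BGP too, at 0.04 (95% interval -0.04 to 0.12) and 0.03 (-0.07 to 0.13). Hsd17b7 had a log2 fold change of 0.13 with BGP (adjusted p 0.0667), with all 3 BGP libraries above all Control libraries. Without NaHPO4 replicate 1 Hsd17b7 passed the test with BGP (0.13, adjusted p 0.0451). Tm7sf2 was at -0.33 with BGP (adjusted p 0.137), with all 3 BGP libraries below all Control libraries. Tm7sf2 exons overlap those of Vps51 on the same strand.

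Among the regulators, the factor of sterol synthesis and its brake rose while the factor of fatty acid synthesis was not called. Srebf2 (ENSMUSG00000022463, chr15:82031382-82093201, plus strand) was the more abundant SREBP gene, at 19.5 CPM per kb of exon in Control against 12.2 for Srebf1. Srebf2 read 185, 175 and 187 CPM in the Control libraries, 214, 198 and 202 in BGP and 200.0, 196 and 196 in NaHPO4. Both treated groups lay above Control and overlapped each other. It rose by 0.17 ± 0.04 log2 (SE, adjusted p 0.00557) with BGP and 0.11 ± 0.04 log2 (SE, adjusted p 0.0477) with NaHPO4. The BGP call was lost without Control replicate 2 or BGP replicate 1 (adjusted p 0.0658 and 0.105). The NaHPO4 call was lost without any 1 of Control replicates 1 and 2, BGP replicates 2 and 3 or any NaHPO4 library (0.0525 to 0.218), and in the 2-group fit (0.0540).

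Srebf1 (ENSMUSG00000020538, chr11:60089913-60113407, minus strand) overlapped in all groups. Srebf1 read 71.7, 68.6 and 76.0 CPM in the Control libraries, 71.4, 74.9 and 72.1 in BGP and 67.1, 70.9 and 72.3 in NaHPO4. Its log2 fold change was 0.01 with BGP (95% interval -0.08 to 0.10, adjusted p 0.940) and -0.04 with NaHPO4 (-0.13 to 0.05; 0.680). The log2 ratio of Srebf2 to Srebf1 counts was 1.34 ± 0.04 (SD, n = 3) in Control, 1.49 ± 0.09 in BGP and 1.49 ± 0.07 in NaHPO4. Each treated library had a higher ratio than each Control library, and an exact permutation test of 3 against 3 cannot go below p = 0.1.

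Insig1 (ENSMUSG00000045294, chr5:28276315-28283668, plus strand), itself a sterol-repressed SREBP target, restrains SREBP processing. Insig1 read 97.1, 93.8 and 91.6 CPM in the Control libraries, 124, 113 and 115 in BGP and 112, 112 and 123 in NaHPO4. All treated libraries lay above Control, and here BGP and NaHPO4 overlapped. The rise was 0.32 ± 0.04 log2 (SE, adjusted p 2.61e-06) with BGP and 0.30 ± 0.04 log2 (SE, adjusted p 4.07e-06) with NaHPO4, and neither call was lost when any 1 library was left out. Its paralogue Insig2 had a log2 fold change of 0.05 with BGP (95% interval -0.02 to 0.13) and 0.10 with NaHPO4 (0.02 to 0.18; adjusted p 0.112). With total-count scaling Insig2 passed the test with NaHPO4 (0.13, adjusted p 0.0357). The log2 ratio of Insig1 to Insig2 counts was -0.23 ± 0.05 (SD, n = 3) in Control, 0.04 ± 0.04 in BGP and -0.03 ± 0.10 in NaHPO4, with every treated library above every Control library.

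Scap, the escort, had a log2 fold change of 0.04 with BGP (95% interval -0.05 to 0.13) and -0.04 with NaHPO4 (-0.13 to 0.05). Stard4 (ENSMUSG00000024378), a soluble carrier that moves cholesterol between membranes and is an SREBP-2 target, had the smallest adjusted p of all members. Stard4 read 45.3, 41.6 and 43.0 CPM in the Control libraries, 53.9, 52.4 and 52.2 in BGP and 60.9, 61.9 and 58.2 in NaHPO4. The groups formed 3 separate levels, Control lowest and NaHPO4 highest. It rose by 0.29 ± 0.05 log2 (SE, adjusted p 0.000241) with BGP, 1.22-fold, and by 0.48 ± 0.05 log2 (SE, adjusted p 3.51e-09) with NaHPO4, 1.39-fold.

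In fatty acid synthesis and modification, 2 of 8 members rose with BGP and 5 of 8 with NaHPO4 (median 0.098 and 0.194), and those that rose elongate or desaturate acyl chains. The 3 enzymes that make palmitate were not called with either phosphate. Acly, which supplies cytosolic acetyl-CoA from citrate, had a log2 fold change of 0.10 with BGP (adjusted p 0.163) and 0.05 with NaHPO4 (0.451). Acaca, the acetyl-CoA carboxylase, had a log2 fold change of 0.05 in both comparisons (95% intervals -0.04 to 0.14). Of the Acaca windows 28.2% are shared with other annotated genes, chiefly a predicted one.

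Fasn (ENSMUSG00000025153, chr11:120696672-120715995, minus strand), the fatty acid synthase, varied most within BGP. Fasn read 180.1, 182.4 and 180.6 CPM in the Control libraries, 201.3, 183.4 and 203.3 in BGP and 186.9, 186.3 and 182.6 in NaHPO4. All treated libraries lay above Control, by a narrow margin in NaHPO4, and BGP replicate 2 lay far below its fellows. The log2 fold change was 0.11 with BGP (adjusted p 0.101) and 0.03 with NaHPO4 (95% interval -0.04 to 0.11). Without BGP replicate 2 the BGP value was 0.16 with an adjusted p of 0.0175.

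Scd2 (ENSMUSG00000025203, chr19:44281613-44295303, plus strand) introduces the double bond of oleate and palmitoleate and was the most abundant member. Scd2 read 588, 612 and 619.6 CPM in the Control libraries, 694, 667 and 673 in BGP and 744, 754 and 732 in NaHPO4. The 3 groups did not overlap and stood in the order Control, BGP, NaHPO4. It rose by 0.16 ± 0.03 log2 (SE, adjusted p 0.00136) with BGP and 0.29 ± 0.03 log2 (SE, adjusted p 1.52e-08) with NaHPO4, and neither call was lost when any 1 library was left out.

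Scd1 (ENSMUSG00000037071, chr19:44382894-44399154, minus strand), its paralogue on the same chromosome, was lower than Scd2 per kilobase of exon in every group (22.2 against 80.6 CPM per kb in Control). Scd1 read 153, 156 and 170.1 CPM in the Control libraries, 178, 166 and 165 in BGP and 193, 182 and 190.1 in NaHPO4. BGP overlapped with Control, and the NaHPO4 libraries were the highest. It rose with NaHPO4 by 0.24 ± 0.04 log2 (SE, adjusted p 6.24e-05), and with BGP the log2 fold change was 0.09 (95% interval 0.01 to 0.17, adjusted p 0.333). Scd2 to Scd1 log2 count ratios were 1.93 ± 0.05 (SD, n = 3) in Control, 2.00 ± 0.03 in BGP and 1.98 ± 0.06 in NaHPO4, and the groups overlapped.

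Fads2 (ENSMUSG00000024665, chr19:10038130-10079203, minus strand), the delta-6 desaturase of polyunsaturated fatty acids, separated all 3 groups. Fads2 read 79.9, 82.0 and 79.5 CPM in the Control libraries, 87.0, 86.8 and 84.4 in BGP and 95.1, 92.9 and 95.0 in NaHPO4. NaHPO4 was highest and Control lowest. The rise with NaHPO4 was 0.23 ± 0.04 log2 (SE, adjusted p 7.76e-05), and the log2 fold change with BGP was 0.10 (95% interval 0.02 to 0.18, adjusted p 0.245). Fads1, the delta-5 desaturase next to it on chromosome 19, rose with NaHPO4 by 0.16 ± 0.04 log2 (SE, adjusted p 0.00272). Elovl6, which elongates palmitate, rose by 0.36 ± 0.10 log2 (SE, adjusted p 0.0302) with BGP and 0.43 ± 0.09 log2 (SE, adjusted p 0.00186) with NaHPO4. Its BGP call was lost without Control replicates 1 or 3 or any 1 BGP library (adjusted p 0.0688 to 0.282) and with DESeq2 (0.0665), and Control replicate 1 was low at 10.9 CPM against 15.7 and 13.5.

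**Figure D2:**
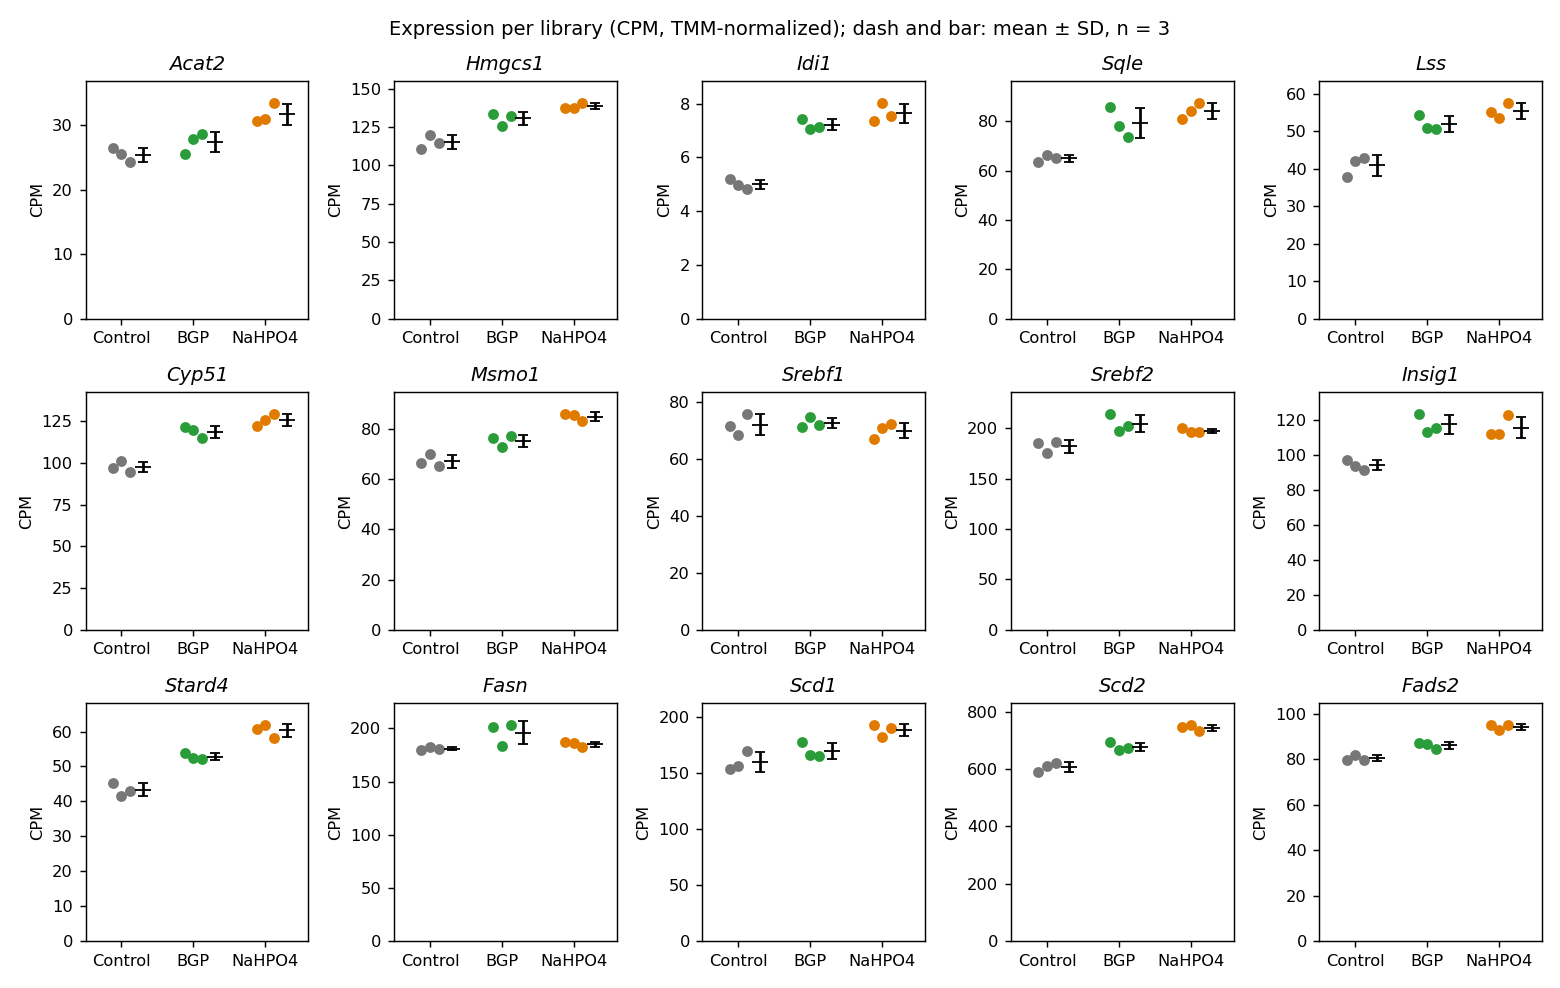
CPM (vertical axis, from 0) of 15 members in each library of Control, BGP and NaHPO4 (points), with the mean and SD of each group beside them (n = 3). Treated libraries lie above Control for Hmgcs1, Idi1, Sqle, Lss, Cyp51, Msmo1, Srebf2, Insig1, Stard4, Scd2 and Fads2. They do so by a narrow margin for Fasn, which was not called, and Srebf1 overlaps in all groups.

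At equal dose and time the 2 phosphates were also set against each other. The paper states that alkaline phosphatase turns added BGP into inorganic phosphate, and that the activity measured implies this in its cells. The medium of every group also held inorganic phosphate. Cells given BGP may thus have met both forms, and the comparison is not one of pure organic against inorganic phosphate. BGP was lower than NaHPO4 for 6 of the 32 members and higher for none (edgeR, while DESeq2 gave 5 and 0), and 10 members lay above 0 and 22 below. The 6 were -0.19 ± 0.05 log2 (SE, adjusted p 0.009) for Stard4, -0.17 ± 0.04 log2 (SE, adjusted p 0.00878) for Msmo1, -0.13 ± 0.03 log2 (SE, adjusted p 0.00611) for Scd2, -0.15 ± 0.04 log2 (SE, adjusted p 0.0153) for Scd1, -0.13 ± 0.04 log2 (SE, adjusted p 0.0343) for Fads2 and -0.21 ± 0.06 log2 (SE, adjusted p 0.0426) for Acat2. Among all tested genes 2.05% were lower and 3.33% higher with BGP. That split turned with total-count scaling (280 lower and 456 higher became 494 and 322), while 8 members were then lower and none higher. The members' median was -0.0837, against -0.002 for all tested genes. No member was a DEG (0.205% of all genes were DEGs lower with BGP), and at an unadjusted p below 0.05 there were 13 lower and 2 higher. The 3 BGP libraries lay below the 3 NaHPO4 libraries for 11 members and for 10.4% of all genes.

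Calls between the phosphates were lost when some single libraries were left out, where samples were also fewer. The members' median stayed between -0.101 and -0.0645 over these fits. Without BGP replicate 2 none of the 6 was called (adjusted p 0.0508 to 0.113) and Fasn alone was, as higher with BGP (0.13, adjusted p 0.0471). Without NaHPO4 replicate 2 there were 2 members lower, and without NaHPO4 replicate 3 there were 3. Fads2 was lost without any 1 treated library (adjusted p 0.0623 to 0.154) and without the filter on low counts (0.0655). Acat2 was lost without BGP replicates 1 or 2 or NaHPO4 replicates 2 or 3 (0.0691 to 0.248) and with DESeq2 (0.0968). Scd1 was lost without BGP replicates 2 or 3 or NaHPO4 replicates 1 or 3 (0.0560 to 0.113). Without NaHPO4 replicate 1, Mvk and Nsdhl were newly called lower (0.00595 and 0.0482). Among members that rose with both phosphates, the intervals of the difference held 0 for Insig1 0.02 (95% interval -0.06 to 0.11), Sqle -0.09 (-0.18 to 0.01), Lss -0.09 (-0.20 to 0.01) and Srebf2 0.05 (-0.02 to 0.13). Equal effects of the 2 phosphates on these members were not shown. The intervals of Idi1, -0.08 (-0.32 to 0.15), and Elovl6, -0.07 (-0.25 to 0.12), also held 0 and were wider. Hmgcs1 and Cyp51 had log2 fold changes of -0.09 and -0.08 with intervals just below 0 (-0.16 to -0.01 for both), and neither passed the adjusted test (adjusted p 0.228 and 0.243).

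Seen library by library, the median member lay above its Control mean in each of the 6 treated libraries. The median over the 32 members of the log2 difference from the Control mean was 0.149, 0.096 and 0.150 in the BGP libraries and 0.172, 0.222 and 0.232 in the NaHPO4 libraries, and -0.012 to 0.003 in the Control libraries. BGP replicate 2 was the lowest treated library. The members' summed share of all counts was 0.293 to 0.297% in Control, 0.317 to 0.331% in BGP and 0.339 to 0.343% in NaHPO4. The same median over all tested genes stayed between -0.001 and 0.005 in every library.

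**Figure D3:**
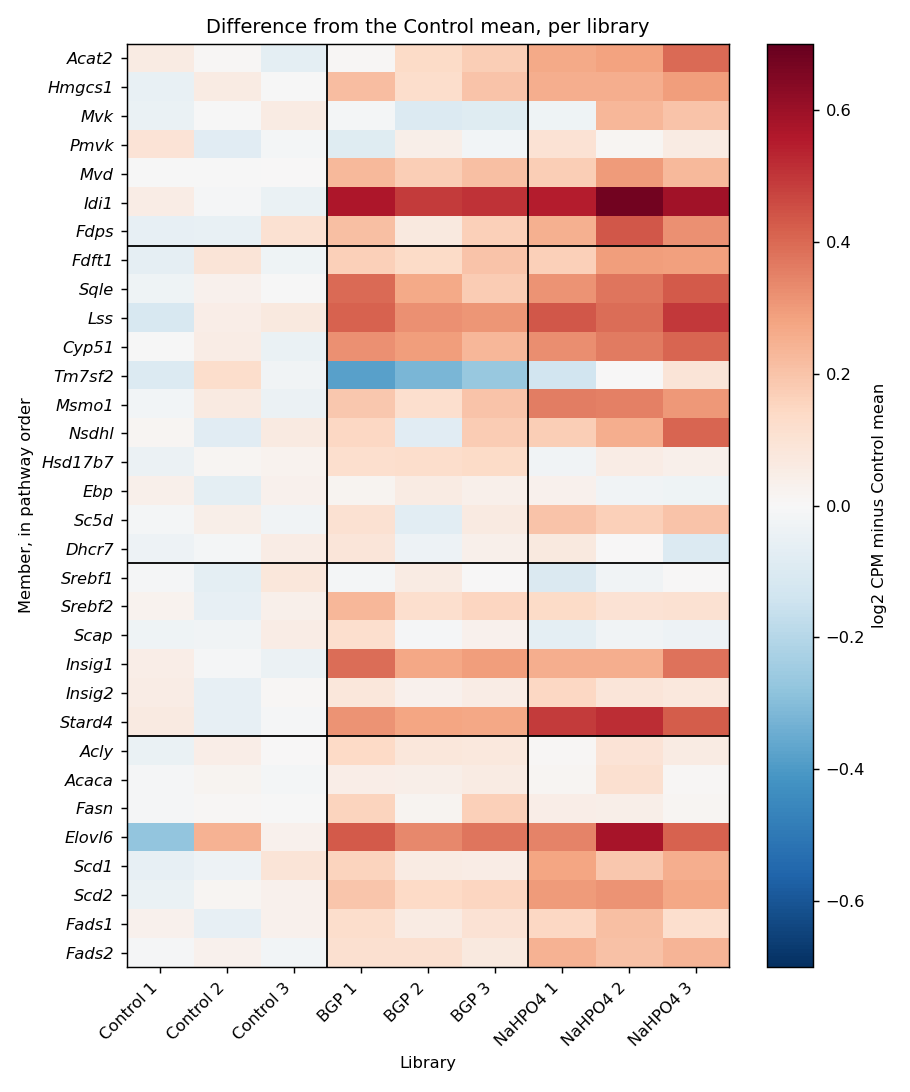
Log2 CPM of each member (rows, in pathway order, with lines between the 4 roles) minus its Control mean, in each library (columns), on a colour scale from -0.7 to 0.7. Red, above the Control mean, runs through Idi1, Sqle, Lss, Cyp51, Insig1, Stard4 and Elovl6 in all 6 treated libraries, and Tm7sf2 is blue in the 3 BGP libraries.

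Levels per kilobase of exon spanned a wide range in Control. Scd2 led at 80.6 ± 2.2 CPM per kb (SD, n = 3), followed by Fads1 at 41.1 ± 1.4. Scd1 (22.2 ± 1.2), Ebp (22.1 ± 0.9), Hmgcs1 (21.9 ± 0.9) and Hsd17b7 (21.4 ± 0.5) came next and did not differ beyond their spread. The lowest were Tm7sf2 (1.82 ± 0.14), Elovl6 (1.58 ± 0.28) and Idi1 (1.41 ± 0.05). Members called and not called were found at both ends of this order. Exon lengths were taken from GENCODE M39, a later annotation than that of the counts, so the order is approximate.

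Genes next to the pathway were listed in 3 neighbouring groups. The machinery that cleaves SREBP or degrades its partners (15 genes tested) had no call with BGP (1 higher and 0 lower unadjusted; DESeq2 called none). With NaHPO4 it had 2, Sec23a of the COPII coat (0.13, adjusted p 0.0153) and Erlin1, an endoplasmic reticulum scaffold (0.21, 0.0263), of which DESeq2 called 1. Both were higher, as were 3.43% of all tested genes. The NaHPO4 libraries lay above all Control libraries for 6 of the 15 and below them for 2. Over all 13679 genes these numbers were 1591 and 1582. Medians were 0.030 and 0.017.

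For sterol transport, esterification, oxysterols and efflux, 22 of 24 genes were tested, and Vldlr, a lipoprotein receptor, fell with both phosphates (-0.17, adjusted p 0.0227 with BGP, and -0.21, 0.000934 with NaHPO4), with medians of -0.009 and 0.006 for the list. Of all tested genes 0.665% were called lower with BGP and 3.95% with NaHPO4. Acetyl-CoA supply, chain elongation and lipid assembly had 21 of 25 genes tested and no call with BGP (2 higher and 0 lower unadjusted; DESeq2 called none). With NaHPO4, Hsd17b12 (0.23, adjusted p 0.000691) and Hacd2 (0.18, 0.00518), both of the acyl chain elongation cycle, and Acsl3, an acyl-CoA synthetase (0.20, 0.0312), rose, and Dgat1, which forms triglyceride, fell (-0.21, 0.0261), and DESeq2 called 2 higher and none lower. The edgeR calls with NaHPO4 were thus 3 of 21 higher and 1 lower, against 3.43% and 3.95% of all tested genes. List medians were -0.006 and 0.055. Hacd2 was lower with BGP than with NaHPO4 (-0.14, adjusted p 0.0470; not called by DESeq2), and the other 2 lists had no call in that comparison (unadjusted, 2 higher and 4 lower; DESeq2 called none). In it 2.05% of all tested genes were called lower with BGP.

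**Figure D4:**
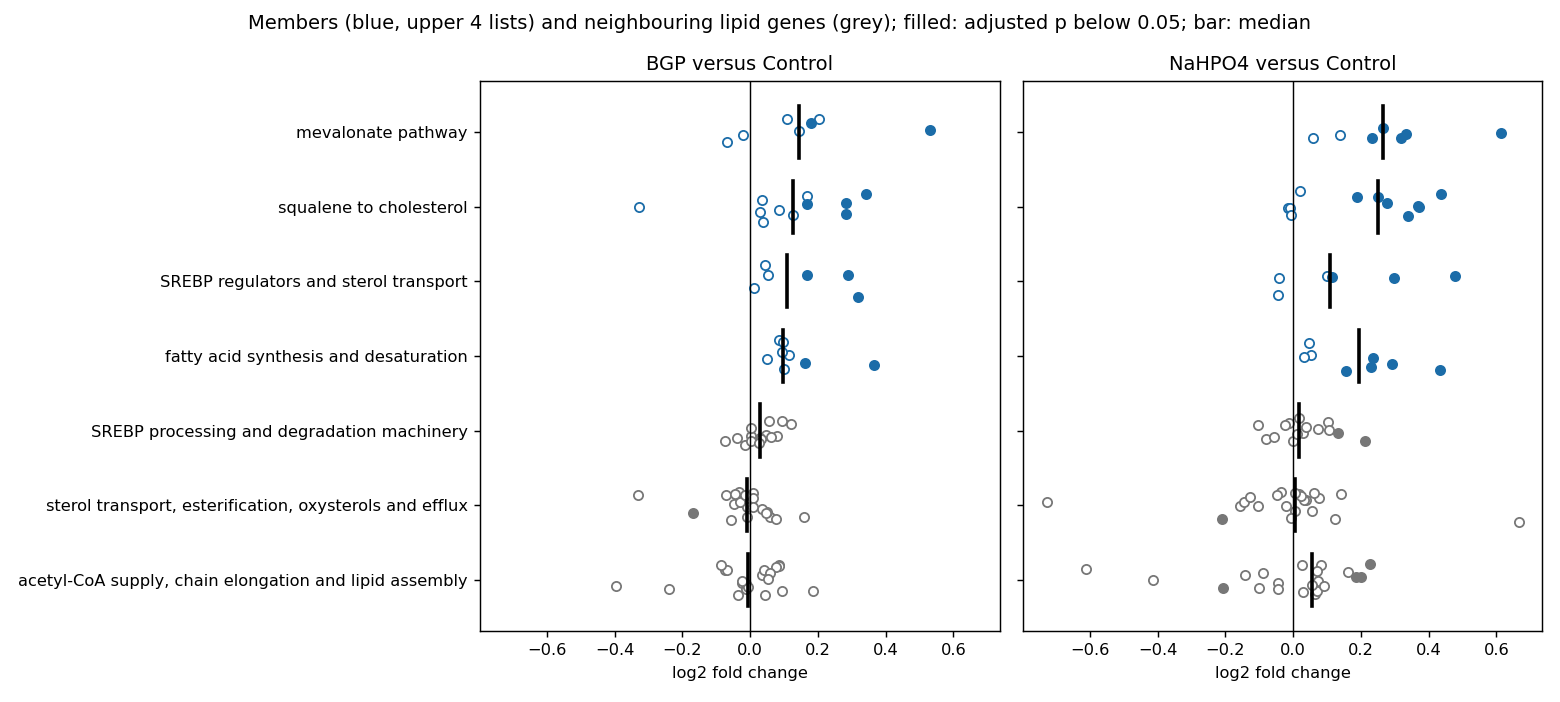
Log2 fold change (horizontal axis) of each gene of the 4 member groups (blue) and 3 neighbouring lists (grey) with BGP and with NaHPO4; filled circles passed adjusted p below 0.05, and the black bar is the list median. Member medians lie between 0.098 and 0.266, and those of the neighbouring lists between -0.009 and 0.055.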

How the data were processed

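Per the study's methods, polyA RNA was made into stranded libraries (TruSeq), sequenced as paired 50-base reads, checked with FastQC and mapped in the AIR software to GRCm39 with Ensembl release 104. The aligner, the counting program and its strand setting are not given in the sources used here, so reads of genes with overlapping exons may be shared. The authors deposited raw counts per gene, used for every test, and a TMM table whose signal values were each library's counts multiplied by 1 factor, used for names and for 1 alternative.

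Counts were fitted with edgeR 4.0.16 in R 4.3.3: filterByExpr (minimum count 10), TMM, 1 mean per group over all 9 libraries, quasi-likelihood tests, Benjamini-Hochberg adjustment over 13679 genes. CPM per library used TMM-scaled totals. SE was the absolute log2 fold change over the square root of F. The code was tested on simulated data. Depth was 21390839 to 28234404 counts, with a common biological coefficient of variation of 3.64%. Chi-square per degree of freedom between replicates was 2.61 to 4.84, so no library was a duplicate.

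The methods of the study name no pairing by replicate number, and the main fit used no block. The members and lists were chosen with earlier results of these data known. Every library value is given for the 12 members with the smallest adjusted p among those called, and for Srebf1, Srebf2, Insig1, Hmgcs1, Sqle, Fasn and Scd1. Other called members are given with fold change and adjusted p, and of each other list at most 4 called genes are named. Another list chosen at the outset is not reported here. Positions, exon lengths and shared 50-base windows came from GENCODE M39 (GRCm39), and motifs from the RefSeq promoter table. Alternatives were DESeq2 1.42.0, other scalings and filters, 2-group fits, a likelihood ratio test, limma 3.58.1 on log2 of the deposited TMM values plus 1, a stricter threshold, a replicate block and leaving out each library.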

Additional observations from a re-analysis of the deposited data

How the results depend on the processing

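Over 19 alternatives, the 1824 values of single members kept their side of the threshold in 1741 cases, fell short of it in 71 and newly passed it in 12. Reversal was counted only where a member was called, and 0 values reversed. The direction of values that stayed uncalled was not counted, and some near 0 changed sign, such as Pmvk with BGP (-0.06 to 0.03). Leaving out 1 library at a time gave 7 to 12 members called with BGP (7 without BGP replicate 1), 0 to 1 DEGs and a median of 0.104 to 0.145. With NaHPO4 it gave 16 to 20 members, 1 to 2 DEGs and a median of 0.215 to 0.231, and between the phosphates 1 to 6 members, 0 to 0 DEGs and a median of -0.101 to -0.0645. At an adjusted p below 0.01 there were 0 member DEGs with BGP and 3 members lower with BGP than with NaHPO4. Total-count scaling gave 2 member DEGs with NaHPO4 and a median of -0.111 between the phosphates, where the median of all genes also shifted, to -0.029. The cause of these changes was not tested, beyond the fewer samples or the stricter threshold by construction. All other alternatives left the members' counts within 1.5 times.

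Deviations of libraries with the same number from their group means correlated at -0.009 to 0.043. The mean was 0.013, against -0.006 for libraries with different numbers. Such low correlations cannot show whether the numbers pair the samples. With the replicate block 11, 19 and 6 members were called (BGP, NaHPO4, BGP versus NaHPO4), Mvd being the NaHPO4 call lost (adjusted p 0.0524), with 1, 1 and 0 DEGs and medians of 0.112, 0.231 and -0.0831. Depth limited Idi1 most among the members described in full, and intervals cover the spread between these libraries.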
